A study of Mus musculus with 5 samples.

Results

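The genes described here are 9 genes of the RAS, MYC and ERK axis, taken by symbol from a list and matched to their Ensembl identifiers among the 55573 genes of the count files. The list was chosen with earlier results of these data known. Its members are the RAS GTPases Hras and Nras, the transcription factors Myc and Mycn, the ERK feedback inhibitors Dusp6, Spry2 and Spry4, and the ETS transcription factors Etv4 and Etv5. All 9 were found, and all 9 passed the filter on low counts. The libraries are bulk RNA from the right hemisphere of female C57BL/6 mice, in which GL261 glioma cells carrying a luciferase/mKate2 vector had been placed in the right caudate-putamen at 7 to 8 weeks of age. GL261 is a mouse glioma line that grows in immunocompetent mice. In the UMBO group (2 libraries) the blood-brain barrier was opened with low-intensity pulsed ultrasound after intravenous microbubbles, and the vehicle group (3 libraries) received inVivoPure dilution buffer. Sessions were on days 21 and 24, and tissue was taken 24 h after the last. The labels name no antibody for either group. Tumors were matched for size by bioluminescence per the study's methods, but sizes of the single tumors were not used here, and each library mixes tumor, brain and immune cells. Fewer cells of a type and less RNA per cell cannot be told apart in such libraries.

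RAS proteins are membrane-bound switches that carry growth factor signals through the RAF and MEK kinases to ERK. Their activity is set by GTP loading, so the amount of Hras or Nras mRNA is not a measure of signaling. ERK activity is commonly read from transcripts that it induces: Dusp6 encodes a phosphatase that inactivates ERK, Spry2 and Spry4 encode Sprouty proteins that restrain RAS activation, and Etv4 and Etv5 encode ETS factors of the PEA3 group. Myc is induced by the same signals and drives ribosome production and cell growth, whereas Mycn is best known from neural and glial progenitors and neuroblastoma. Glioma cells, glial progenitors and activated immune cells can each express several of these genes.

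Upstream sequence was read for 6 of the 9 members (Hras, Nras, Mycn, Dusp6, Spry2 and Etv5, the last with 2 starts) in the RefSeq promoter table of GRCm38.p6. In the 250 bases before each start, both strands were searched for the E-box CACGTG, to which MYC with its partner MAX can bind, the ETS site CCGGAAGT, the AP-1 site TGANTCA and the cyclic AMP element TGACGTCA. None of these motifs contains another. The only match was an E-box before Nras, whose first base lies 15 bases before the start. The same letters occur in 6.02% of the 32851 promoter windows of the table, and the ETS, AP-1 and cyclic AMP letters in 2.88%, 6.75% and 1.55%. The stretches below are shown because Hras and Nras are compared as a pair and Dusp6 is the ERK readout with the widest range among the feedback genes; each is the part of its window that no annotated exon covers, and capitals mark the E-box. Nras is read from the plus strand at chr3:103058187-103058284, Hras from the minus strand at chr7:141194006-141194156, and Dusp6 from the plus strand at chr10:99262981-99263230.
Nras: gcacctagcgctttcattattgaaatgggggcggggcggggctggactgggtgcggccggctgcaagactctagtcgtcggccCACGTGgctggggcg
Hras: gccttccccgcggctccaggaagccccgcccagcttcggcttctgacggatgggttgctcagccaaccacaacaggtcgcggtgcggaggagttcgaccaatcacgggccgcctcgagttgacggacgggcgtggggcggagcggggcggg
Dusp6: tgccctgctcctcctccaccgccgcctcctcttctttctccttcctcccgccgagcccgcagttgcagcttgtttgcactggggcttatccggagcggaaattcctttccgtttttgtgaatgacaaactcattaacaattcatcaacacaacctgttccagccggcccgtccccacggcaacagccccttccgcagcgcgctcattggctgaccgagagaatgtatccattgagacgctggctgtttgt

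The deposited values were raw read counts, with totals of 59736771 to 86164159 per library. Members had between 239 and 10277 counts in a library, so counting error was small beside the differences between mice. Levels are given as CPM, that is read counts relative to library sizes after TMM scaling. SE is the standard error of a fitted log2 fold change. UMBO replicate 2 stood apart from the other libraries, at 133.7 on the first principal component (78.7% of the variance), where the other 4 lay between -68.4 and 17.0. The labels do not say that the replicates differ other than as mice. The brain label was met by the 5 neuronal and 5 oligodendrocyte markers, none of which was at 0 in any library.

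No member passed the test between the groups. In edgeR's quasi-likelihood test the adjusted p of the 9 members lay between 0.497 and 0.827, and 0 of 23592 genes (0%) had an adjusted p under 0.05. Before adjustment 1 member, Myc, had a p under 0.05, where 5.3% of all genes had such a p with higher and 2.06% with lower levels in UMBO. That number was 0 without vehicle replicate 1, where 296 of 23137 genes had such a p. It was 0 without vehicle replicate 3 (432 of 22953 genes) and under a stricter filter on low counts (1178 of 16104 genes). With the replicate number as a block the number was 3, where 6134 of 23592 genes had such a p. It was 2 under library size alone, where 1897 of 23592 genes had such a p. It was also 2 with no filter, where 4100 of 40435 genes did. The DESeq2 Wald test called 37 genes, none of them a member, and Myc was again the 1 member under 0.05 before adjustment. By the sign of the fitted difference 7 members were higher and 2, Mycn and Etv5, were lower with UMBO, beside 50.9% of all genes higher. The median log2 fold change of the members was 0.40, beside 0.01 over all genes tested. This median rested on UMBO replicate 2. It was -0.08 without that library and 0.75 without UMBO replicate 1.

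**Figure D1:**
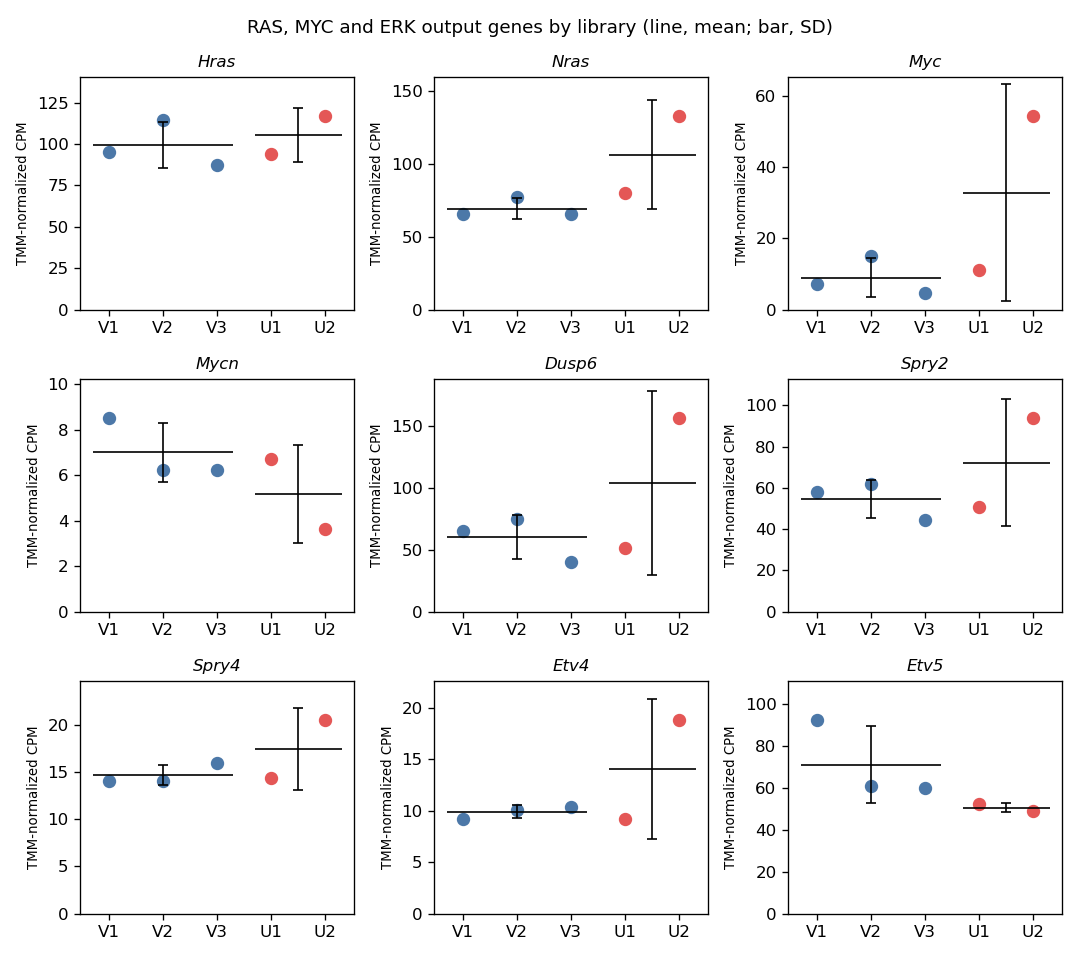
TMM-normalized CPM of each member (vertical axes, from 0) in vehicle libraries V1 to V3 (blue) and UMBO libraries U1 and U2 (red), with the group mean as a line and the SD as a bar. UMBO replicate 2 is the highest library for 7 members and the lowest for Mycn and Etv5.

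UMBO replicate 2 was the highest of the 5 libraries for 7 members and the lowest for the other 2, of which Etv5 was lowest in UMBO replicate 1 under library size alone. It was the highest library for 40.4% of all genes tested and the lowest for 39.8%. UMBO replicate 1 lay within the range of the vehicle libraries for 6 of the 9 members, beside 63.4% of all genes. The groups did not overlap for Nras, which was higher in both UMBO libraries (1 member, beside 11.5% of all genes), or for Etv5, which was lower (1 member, beside 11.4%). The plot of CPM by library shows this arrangement gene by gene. With 3 libraries against 2 an exact permutation test of a single value cannot give a p below 0.1.

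Compared per kilobase of exon, Hras and Spry2 had the highest levels in vehicle hemispheres, at 26.5 ± 3.72 and 26.2 ± 4.37 CPM per kb (SD, n = 3). Dusp6 followed at 19.2 ± 5.71, Etv5 at 17.3 ± 4.51 and Nras at 13.0 ± 1.31 CPM per kb. The lowest levels were those of Myc, at 3.29 ± 2.00, Etv4, at 3.19 ± 0.19, Spry4, at 3.09 ± 0.23, and Mycn, at 2.12 ± 0.40 CPM per kb. The vehicle ranges of neighbors in this order overlapped from Hras down to Etv5 and from Myc down to Spry4. They did not overlap between Etv5 and Nras, between Nras and Myc or between Spry4 and Mycn. Between Etv5 and Nras the margin was narrow, at 14.59 against 14.53 CPM per kb. Under library size alone these 2 ranges overlapped. In UMBO replicate 2 the order was different, with Dusp6 highest at 50.1 CPM per kb, Spry2 at 45.0, Hras at 31.3, Nras at 24.9 and Myc at 20.05, above Etv5 at 11.9.

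Hras (ENSMUSG00000025499, chromosome 7 of GRCm38, 141189105 to 141194005, reverse strand) encodes one of the RAS switches. It was at 95.2, 114.5 and 87.5 CPM in the vehicle libraries and at 93.7 and 116.9 CPM in the UMBO libraries. The groups overlapped over nearly their whole range. Its fitted log2 difference was 0.09 (SE 0.207), and it was -0.08 without UMBO replicate 2.

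Nras (ENSMUSG00000027852, chromosome 3, 103058285 to 103067914, forward strand), a second RAS gene, was at 65.4, 77.5 and 65.3 CPM with vehicle and at 79.9 and 133 CPM with UMBO. UMBO replicate 1 exceeded the highest vehicle library by a small margin, and UMBO replicate 2 exceeded it clearly. For Nras the log2 fold change was 0.62 (SE 0.255; adjusted p = 0.497, edgeR's quasi-likelihood test). It was 0.20 without UMBO replicate 2 and 0.91 without UMBO replicate 1.

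Myc (ENSMUSG00000022346, chromosome 15, 61985391 to 61990374, forward strand) had the widest range of the members in fold terms. Its vehicle levels were 7.09, 15.1 and 4.65 CPM, and UMBO replicate 1 had 11.2 CPM beside 54.5 CPM in UMBO replicate 2. Vehicle replicate 2 was thus above UMBO replicate 1, and the groups overlapped. The means were 8.93 ± 5.44 CPM (SD, n = 3) with vehicle and 32.8 ± 30.6 CPM (SD, n = 2) with UMBO, a fitted log2 difference of 1.88 (SE 0.744; adjusted p = 0.497, edgeR's quasi-likelihood test). Without UMBO replicate 2 the log2 fold change was 0.33, and without UMBO replicate 1 it was 2.58.

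Mycn (ENSMUSG00000037169, chromosome 12, 12936093 to 12941914, reverse strand) went the other way in UMBO replicate 2. It was at 8.52, 6.23 and 6.25 CPM with vehicle, at 6.70 CPM in UMBO replicate 1, inside the vehicle range, while UMBO replicate 2 had 3.65 CPM. Mycn had a fitted log2 difference of -0.43 (SE 0.349; adjusted p = 0.537, edgeR's quasi-likelihood test), and -0.06 without UMBO replicate 2.

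Of the ERK feedback genes, Dusp6 (ENSMUSG00000019960, chromosome 10, 99263231 to 99267489, forward strand) varied most. Its levels were 65.3, 75.0 and 40.4 CPM with vehicle, 51.1 CPM in UMBO replicate 1 and 156.9 CPM in UMBO replicate 2. UMBO replicate 1 was below 2 of the 3 vehicle libraries. The log2 fold change of 0.79 (SE 0.498; adjusted p = 0.497, edgeR's quasi-likelihood test) became -0.23 without UMBO replicate 2 and 1.35 without UMBO replicate 1.

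Spry2 (ENSMUSG00000022114, chromosome 14, 105891947 to 105896819, reverse strand) was at 57.9, 61.8 and 44.4 CPM with vehicle and at 50.5 and 93.9 CPM with UMBO. The order of the 5 libraries was the same as for Dusp6. Its log2 fold change was 0.40 (SE 0.303), and -0.11 without UMBO replicate 2.

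Spry4 (ENSMUSG00000024427, chromosome 18, 38586247 to 38601415, reverse strand) was the least variable of these 3 genes among vehicle libraries, at 14.0, 14.1 and 15.9 CPM, with 14.4 and 20.6 CPM in the UMBO libraries. Its log2 fold change was 0.25 (SE 0.222), and -0.03 without UMBO replicate 2. In UMBO replicate 1 none of the 3 feedback genes was above the vehicle range.

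The ETS factors differed from each other. Etv4 (ENSMUSG00000017724, chromosome 11, 101769742 to 101785371, reverse strand) was at 9.23, 10.1 and 10.4 CPM with vehicle and at 9.20 and 18.8 CPM with UMBO. UMBO replicate 2 was the highest of the 5 libraries. UMBO replicate 1 was level with vehicle replicate 1, and inside the vehicle range under library size alone. Etv4 had a fitted log2 difference of 0.50 (SE 0.326), -0.11 without UMBO replicate 2 and 0.90 without UMBO replicate 1.

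Etv5 (ENSMUSG00000013089, chromosome 16, 22381309 to 22439719, reverse strand) was at 92.4, 60.9 and 59.9 CPM with vehicle and at 52.1 and 49.0 CPM with UMBO. It was the member with both UMBO libraries below every vehicle library, and the UMBO libraries were close to each other (50.5 ± 2.23 CPM, SD, n = 2, against 71.0 ± 18.5 CPM, SD, n = 3). The log2 fold change was -0.49 (SE 0.245; adjusted p = 0.497, edgeR's quasi-likelihood test). It kept its sign without UMBO replicate 2 (-0.44) and was -0.26 without vehicle replicate 1, the library with the highest level.

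**Figure D2:**
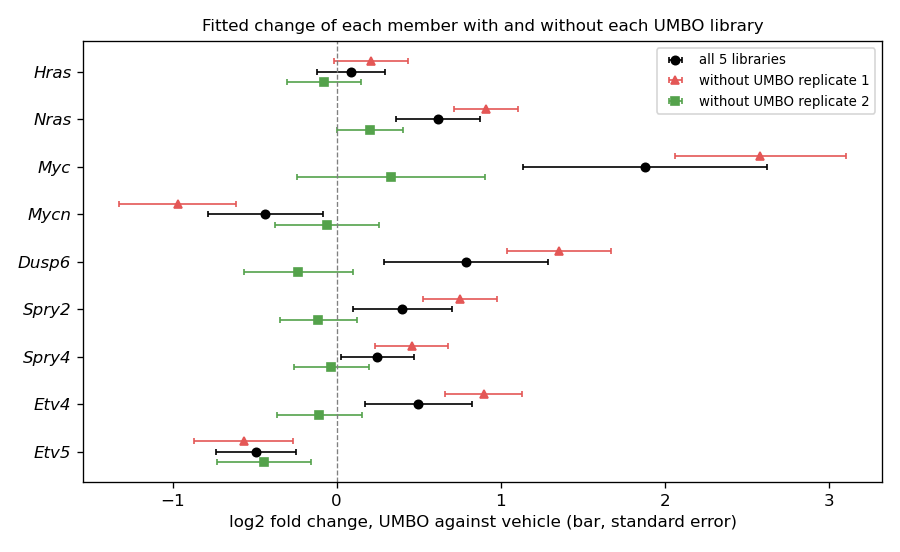
Fitted log2 fold change of each member, UMBO against vehicle (horizontal axis; bars are standard errors), from all 5 libraries (black circles), without UMBO replicate 1 (red triangles) and without UMBO replicate 2 (green squares). Without UMBO replicate 2 the members lie between -0.44 (Etv5) and 0.33 (Myc), and 5 members that were positive are negative.

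Ratios between related members do not depend on the scaling of the libraries, and were compared for 4 pairs with a 2-sided exact permutation test on log2 ratios per kilobase. The ratio of Hras to Nras was 2.08, 2.11 and 1.91 with vehicle and 1.68 and 1.26 with UMBO. Both UMBO libraries were below every vehicle library, and the mean log2 ratio differed by -0.49 (exact permutation p = 0.1, the smallest possible; adjusted over the 4 pairs, 0.2). With UMBO replicate 1 alone the difference from the vehicle mean was -0.28, against a vehicle SD of 0.076. A difference with UMBO replicate 1 alone has no test.

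The ratio of Etv5 to Etv4 was 7.57, 4.56 and 4.37 with vehicle and 4.29 and 1.97 with UMBO. The groups again did not overlap, although UMBO replicate 1 was close to the lowest vehicle library, and the mean log2 ratio differed by -0.87 (exact permutation p = 0.1; adjusted, 0.2). With UMBO replicate 1 alone it differed by -0.31, inside the vehicle SD of 0.44. That of Myc to Mycn was 1.01, 2.93 and 0.90 with vehicle, 2.03 in UMBO replicate 1 and 18.1 in UMBO replicate 2. Its groups overlapped, with a difference in mean log2 ratio of 2.13 (exact permutation p = 0.3; adjusted, 0.4), and of 0.55 with UMBO replicate 1 alone. The ratio of Spry2 to Spry4 was 9.39, 9.97 and 6.34 with vehicle and 8.01 and 10.4 with UMBO, a difference of 0.12 in mean log2 ratio that was within the vehicle SD of 0.36 (exact permutation p = 0.8; adjusted, 0.8). It was -0.07 with UMBO replicate 1 alone.

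**Figure D3:**
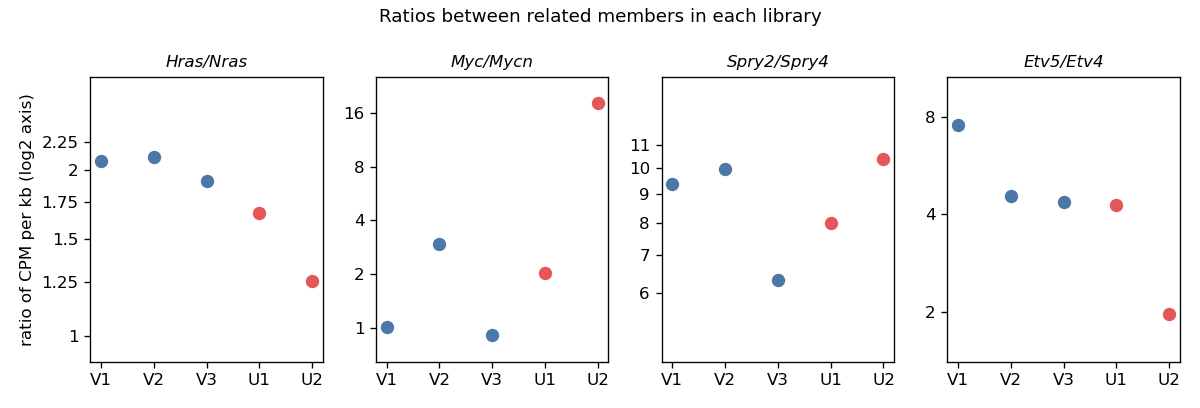
Ratio of CPM per kilobase between related members (vertical axes, log2 scale) in vehicle libraries V1 to V3 (blue) and UMBO libraries U1 and U2 (red). For Hras/Nras and Etv5/Etv4 both UMBO points lie below the 3 vehicle points, whereas for the other pairs the groups overlap.

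Other ERK output and feedback genes were read from a list of 16 genes outside the members. Of these 9 had a higher and 7 a lower fitted level under UMBO, the median log2 difference was 0.31, and 0 passed edgeR's test after adjustment. An unadjusted p under 0.05 was found for 3 genes, all higher, namely Spry1, Ccnd1 and Fosl1, the last named after its value was seen. Over all genes 5.3% had such a p with higher levels in UMBO. For this list the number was 0 without vehicle replicate 1 or vehicle replicate 3. Spry1, another Sprouty gene, was at 9.37, 15.5 and 9.21 CPM with vehicle and at 14.0 and 40.3 CPM with UMBO, a fitted log2 difference of 1.26 (SE 0.478). Ccnd1, which encodes cyclin D1, was at 83.4, 151.7 and 69.0 CPM with vehicle and at 130.9 and 440.8 CPM with UMBO, a fitted log2 difference of 1.496 (SE 0.571). In both genes vehicle replicate 2 was above UMBO replicate 1. Fosl1, an AP-1 subunit, was at 0.11, 0.93 and 0.13 CPM with vehicle and at 0.67 and 6.41 CPM with UMBO. Among the lower genes, Spred3, which encodes a RAS pathway inhibitor, had a fitted log2 difference of -0.55 (SE 0.255), and the ephrin receptor gene Epha4 one of -0.69 (SE 0.471). Without UMBO replicate 2 the median of this list was 0.05. It was 0.04 without UMBO replicate 1 and 0.11 under the stricter filter.

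In the list of 17 RAS relatives, adaptors and kinases of the cascade, 8 had a higher and 9 a lower fitted level under UMBO, the median log2 difference was -0.13, and 0 passed edgeR's test after adjustment. Rras2, a close relative of the RAS genes, was the 1 gene with an unadjusted p under 0.05. Over all genes 5.3% had such a p with higher and 2.06% with lower levels in UMBO. In this list the number was 0 without vehicle replicate 1 or vehicle replicate 3. Rras2 was at 14.9, 17.4 and 14.4 CPM with vehicle and at 19.3 and 33.2 CPM with UMBO. Both UMBO libraries were thus above every vehicle library, as for Nras, in 2 genes of the list, beside 11.5% of all genes. The log2 fold change of Rras2 was 0.75 (SE 0.267), and that of the adaptor gene Shc1 was 0.57 (SE 0.263). Ksr2, which encodes a scaffold of the cascade, had a fitted log2 difference of -0.87 (SE 0.397) and the adaptor gene Frs2 one of -0.49 (SE 0.354). The median of the list was 0.04 without UMBO replicate 2 and -0.38 without UMBO replicate 1.

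Genes for RAS exchange factors, which load GTP, and for GTPase activators, which switch RAS off, were lower more often than higher, at 13 against 2 of 15. Their median log2 fold change was -0.52, and 0 passed edgeR's test after adjustment. The median was -0.20 without UMBO replicate 2 and -0.95 without UMBO replicate 1. Rasgrp2, an exchange factor gene best known for acting on RAP1, had the smallest p in this list. It was at 61.7, 64.2 and 60.7 CPM with vehicle and at 36.1 and 42.9 CPM with UMBO. Both UMBO libraries were well below the narrow vehicle range, and UMBO replicate 1 was the lower of them. The log2 fold change of Rasgrp2 was -0.65 (SE 0.163; unadjusted p = 0.0071 and adjusted p = 0.497, edgeR's quasi-likelihood test). Dab2ip, which encodes a GTPase activator, had a fitted log2 difference of -0.59 (SE 0.245), with both UMBO libraries below the vehicle libraries. The higher genes were Rasa3, with a fitted log2 difference of 0.17 (SE 0.163), and Rasgrp4, with 0.48 (SE 0.494).

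Of 12 genes for MYC partners and antagonists, 7 were higher and 5 lower, the median log2 difference was 0.05, and 0 genes were past edgeR's test after adjustment. Without UMBO replicate 1 the median was -0.19. Mlxipl, which encodes the carbohydrate response factor ChREBP, was at 3.52, 5.79 and 4.96 CPM with vehicle and at 7.87 and 11.4 CPM with UMBO, a fitted log2 difference of 1.02 (SE 0.314). Mxd3, a MAX-binding repressor gene, was at 0.87, 1.14 and 0.59 CPM with vehicle and at 1.15 and 3.18 CPM with UMBO, a fitted log2 difference of 1.32 (SE 0.53). UMBO replicate 1 was level with vehicle replicate 2 in Mxd3 and above it in Mlxipl. Mga, which encodes a MAX partner, and the MAX-binding repressor gene Mxd1 stood at -0.61 (SE 0.29) and -0.25 (SE 0.167) on the log2 scale.

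MYC target genes of ribosome and metabolite synthesis were higher in 17 of 18 cases by the fitted sign, the median log2 difference was 0.54, and 0 passed edgeR's test after adjustment. The groups overlapped in all 18 genes. Hspe1, a mitochondrial chaperonin gene, was at 47.4, 74.1 and 51.4 CPM with vehicle and at 65.4 and 236.7 CPM with UMBO, a fitted log2 difference of 1.39 (SE 0.525). Fbl, which encodes the nucleolar protein fibrillarin, was at 21.2, 29.2 and 19.1 CPM with vehicle and at 23.9 and 87.4 CPM with UMBO, a fitted log2 difference of 1.26 (SE 0.521). As in Myc, vehicle replicate 2 was above UMBO replicate 1 in both genes. Rrp12, the 1 lower gene, had a fitted log2 difference of -0.06 (SE 0.171). Without UMBO replicate 2 the median of the list was 0.01, with 9 of 18 genes higher, and without UMBO replicate 1 it was 0.88.

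**Figure D4:**
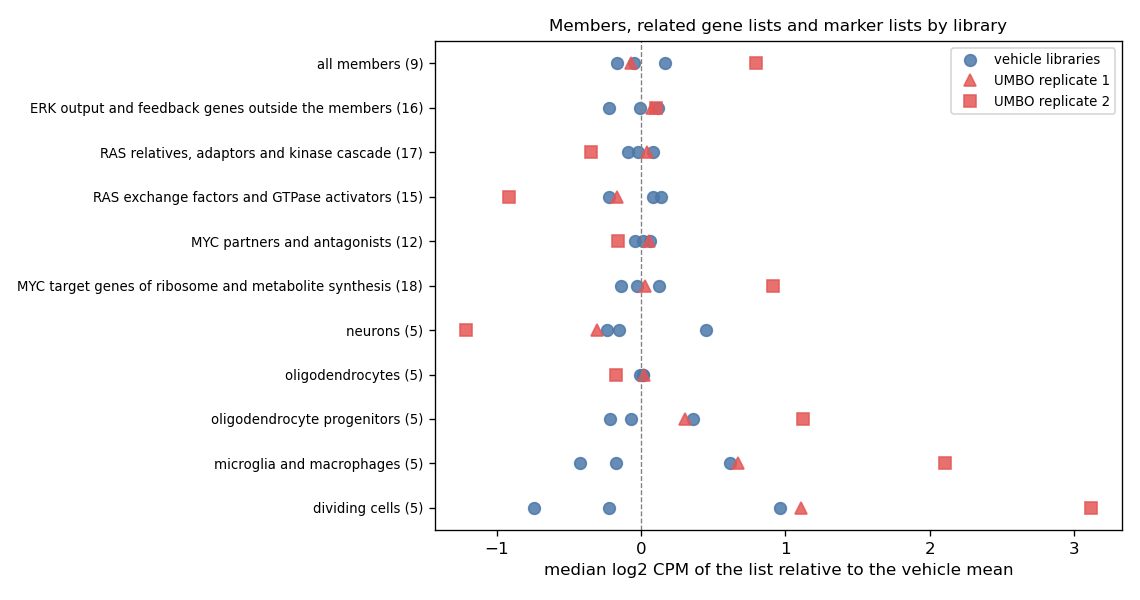
Median log2 CPM of each gene list relative to the vehicle mean (horizontal axis) in the vehicle libraries (blue circles), UMBO replicate 1 (red triangles) and UMBO replicate 2 (red squares), with the number of genes in parentheses. The members stand at 0.79 in UMBO replicate 2, against -0.07 in UMBO replicate 1, and MYC target genes at 0.92 and 0.03.

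Markers of several cell types differed between the same libraries. The summed level of 5 markers of dividing cells was 20.8 to 71.7 CPM with vehicle, 76.4 CPM in UMBO replicate 1 and 317.6 CPM in UMBO replicate 2, with all 5 genes higher, each with an unadjusted p under 0.05 and, in edgeR, 0.497 after adjustment. That of 5 microglia and macrophage markers was 185.2 to 279.2 CPM with vehicle and 356.8 and 488.3 CPM with UMBO, with all 5 higher. That of 5 markers of oligodendrocyte progenitors was 274.2 to 368.2 CPM with vehicle and 376.3 and 667.3 CPM with UMBO, with 4 of 5 higher. The lower gene, Pdgfra, was at 56.75, 53.41 and 69.84 CPM with vehicle and at 63.91 and 38.9 CPM with UMBO. The 5 neuronal markers, all lower with UMBO, summed to 4299 to 6983 CPM with vehicle, 4488 CPM in UMBO replicate 1 and 2065 CPM in UMBO replicate 2. The order of the libraries for Myc was that of the summed dividing cell markers except that UMBO replicate 1 and vehicle replicate 2 changed places. Etv5, like the summed neuronal markers, was highest in vehicle replicate 1. In UMBO replicate 1, however, Etv5 was below every vehicle library. The neuronal sum there, 4488 CPM, was above the 4368 and 4299 CPM of vehicle replicates 2 and 3. No marker of these lists was at 0 in any library. Their part in the levels of the members was not tested.

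The genes whose pattern over the 5 libraries was nearest to that of Myc, by the root mean square difference of centered log2 CPM among 16930 candidate genes, were Chaf1b (0.071), Cenph (0.073) and Fignl1 (0.085). Chaf1b encodes a subunit of chromatin assembly factor 1 and Cenph a kinetochore protein. Chaf1b was at 1.04, 2.21 and 0.59 CPM with vehicle and at 1.58 and 8.15 CPM with UMBO. The genes nearest to Dusp6 were Psors1c2 (0.079), Rpl31-ps12 (0.089) and Rbm3 (0.096). Psors1c2, at 0.20 to 0.76 CPM, and Rpl31-ps12, at 0.37 to 1.34 CPM, had levels far below those of Dusp6. Rbm3, which encodes a cold-inducible RNA-binding protein, was at 66.1, 75.1 and 45.7 CPM with vehicle and at 51.2 and 144.3 CPM with UMBO, so that UMBO replicate 1 was within the vehicle range as it was for Dusp6.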

How the data were processed

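Raw read counts per gene were used as deposited by the authors, 1 table per mouse. Per the paper's methods and the submitters' processing notes, reads were mapped with STAR 2.7.2a to GRCm38; the annotation release and the strand setting are not given in the sources used here. No member shares exonic bases with another gene in GENCODE M21, which gave symbols for 55480 of 55573 genes, positions and merged exon lengths. Groups and replicate numbers came from the sample labels.

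Counts were scaled by TMM, filtered with filterByExpr (23592 genes tested) and compared in R 4.3.3 by edgeR 4.0.16 (quasi-likelihood test); p-values were adjusted over all genes (Benjamini-Hochberg, threshold 0.05). Log2 CPM used a prior count of 2. Alternatives were other scalings and filters, the DESeq2 1.42.0 Wald test, the replicate number as a block and each library left out. The edgeR fit was tested on simulated counts of known change. With the spread estimated from these data it recovered 100 of 200 genes changed 4-fold and called 5 unchanged genes. A change of that size can thus be missed here. The totals of 59736771 to 86164159 counts leave the precision to the spread between mice. The samples are separate mice per the series' design text.

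The members and gene lists were chosen with earlier results of these data known. Named genes were every member, per list the 2 higher and the 2 lower genes of smallest unadjusted p, and the 3 tested genes nearest in pattern to Myc and to Dusp6, leaving out symbols made of Gm plus a number or ending in Rik. Markers are given as lists, with some also named singly. Fosl1 and Gfap are marked where they appear.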

Additional observations from a re-analysis of the deposited data

How the results depend on the processing

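None of the 9 members changed sign under the 6 settings that kept all libraries. The number of members past an adjusted p of 0.05 was 0 under the scaling factors of DESeq2, under library size alone, with no filter, a stricter filter and the DESeq2 Wald test. Under library size alone the median over all genes was 0.13 instead of 0.01 (log2). Over all genes, 0 passed with TMM and 37 with the DESeq2 Wald test. With the replicate block 2337 genes passed, and 1 member, Myc, with a log2 fold change of 1.27 (adjusted p = 0.0066, edgeR). The replicate numbers mark no stated pairing. Deviations from the group means correlated at 0.453 and 0.76 for the 2 shared numbers. Those of the 2 UMBO libraries are exact opposites of each other, so the correlations are not separate checks and do not show a pairing. With that block 5 of the 16 ERK output genes (median 0.17), 2 of the 17 cascade genes, 5 of the 15 exchange factor and activator genes, 1 of the 12 MYC partners and 3 of the 18 MYC targets passed. Leaving out 1 library gave 0 to 4543 genes and 0 to 4 members past the threshold, the highest of each without UMBO replicate 1, where 1 UMBO library remained. The median of the members ranged from -0.079 without UMBO replicate 2 to 0.75 without UMBO replicate 1. For the 5 members whose sign turned without UMBO replicate 2, the log2 fold changes ranged from -0.079 to 0.23 for Hras, -0.23 to 1.35 for Dusp6, -0.11 to 0.75 for Spry2, -0.032 to 0.46 for Spry4 and -0.11 to 0.90 for Etv4; the cause was not tested. Before adjustment 1738 genes were under 0.05, with 296 without vehicle replicate 1 to 10165 without UMBO replicate 1. Members had at least 239 counts in every library.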

Other observations

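Among the members themselves, the nearest patterns over the 5 libraries were those of Nras and Etv4, with a root mean square difference of 0.153 on the log2 CPM scale, Nras and Spry2, with 0.173, and Spry4 and Etv4, with 0.191. The 5 endothelial markers summed to 107.2 to 152.2 CPM with vehicle and to 185.7 and 211.8 CPM with UMBO, so that the groups did not overlap, and all 5 genes were higher. The 5 T cell markers summed to 15.1 to 24.2 CPM with vehicle, to 9.02 CPM in UMBO replicate 1 and to 28.6 CPM in UMBO replicate 2, with overlapping groups. Cd4, the T cell marker with the highest counts, was lower with UMBO and the other 4 were higher by the fitted sign, but 0 of the 5 were higher without UMBO replicate 2. Astrocyte markers summed to 2709 to 3872 CPM with vehicle and to 4534 and 2740 CPM with UMBO. Of these 5 genes 3 were higher and 2, Slc1a2 and Gja1, were lower by the fitted sign. The glutamate transporter gene Slc1a2 made up most of that sum in the vehicle libraries. Gfap, the marker of reactive astrocytes, named here after its value was seen, was at 214.2, 515.1 and 387.7 CPM with vehicle and at 1396 and 1636 CPM with UMBO, a fitted log2 difference of 2.03 (SE 0.401; adjusted p = 0.497, edgeR's quasi-likelihood test). With the DESeq2 Wald test 1 astrocyte marker passed after adjustment. Oligodendrocyte markers summed to 5384 to 5483 CPM with vehicle and to 5709 and 4848 CPM with UMBO. Their part in the levels of the members was not tested.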
